A study of Bos taurus with 44 samples.

Results

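Cows that were high for antibody response were set against cows that were high for cell-mediated response, in blood mononuclear cells collected 6 days after immunization. The groups were taken from the sample titles: high-Ab cows 2 and 3 formed one side and high-DTH cows 2 and 3 the other, with Ab for antibody and DTH for the cell-mediated response, which is the labels' abbreviation. These 4 cows carried 17 of the 44 arrays of the series, 4 for each cow except high-DTH cow 2, which had 5. A further cow is labelled high for both traits. It belongs to both sides, so it was left out of the contrast and its values are given beside it. All cows were female Holsteins and all had been immunized with antigens meant to raise antibody and cell-mediated responses, so neither side is an unimmunized control. The series also holds 3 low-Ab and 3 low-DTH cows, and its 11 cows are counted here by taking same-numbered cows of different groups as different animals, which the labels do not state.

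Antibody responses are made by B cells that mature into immunoglobulin-secreting cells with help from T cells. Delayed-type hypersensitivity, the skin reaction by which cell-mediated immunity is commonly scored, is carried by T cells that recruit and activate monocytes through cytokines and chemokines. Mononuclear cells from blood hold T cells, B cells, natural killer cells and monocytes, and in cattle also many gamma delta T cells.

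On each array the amplified RNA of 1 cow competed with a reference RNA, the same on all arrays and likewise made from mononuclear cells of blood, in the opposite dye. The value of a spot is a log ratio, read here as log2 of cow over standard. A value of 0 means that cow and standard gave the same signal, and a difference of 1 between cows is a factor of 2. Neither the log base nor the direction of the ratio is given in the sources used here, so all directions below would turn together under the opposite convention. Because the standard is of the same kind of cell, a ratio does not give the level of a gene, and the ratios cannot show whether a defining marker of a cell type was present or absent. In such bulk samples, fewer cells of a type and less RNA per cell cannot be told apart.

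The arrays of 1 cow did not all run together, which bears on every value below. Array pairs of the same cow had a mean r of 0.45 over spots, pairs of different cows of the same side 0.24, and pairs across the sides 0.20. High-DTH cow 2 was the most even, with r between 0.52 and 0.81 among its 5 arrays. In high-DTH cow 3, arrays 1 and 2 had r = 0.62 and arrays 3 and 4 had r = 0.63, but the correlations between these pairs of arrays lay between −0.24 and 0.28. Arrays 3 and 4 of this cow also had over spots an SD of 0.64 and 0.61, against 0.29 and 0.30 for arrays 1 and 2. Every difference below uses this cow, so the values without its arrays 3 and 4 are given for the 20 genes and the gene lists described. Between the 2 high-Ab cows the dye moved with the values: arrays of the same dye orientation had a mean r of 0.44 and arrays of opposite orientation 0.15, against 0.25 and 0.16 between the 2 high-DTH cows.

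**Figure D1:**
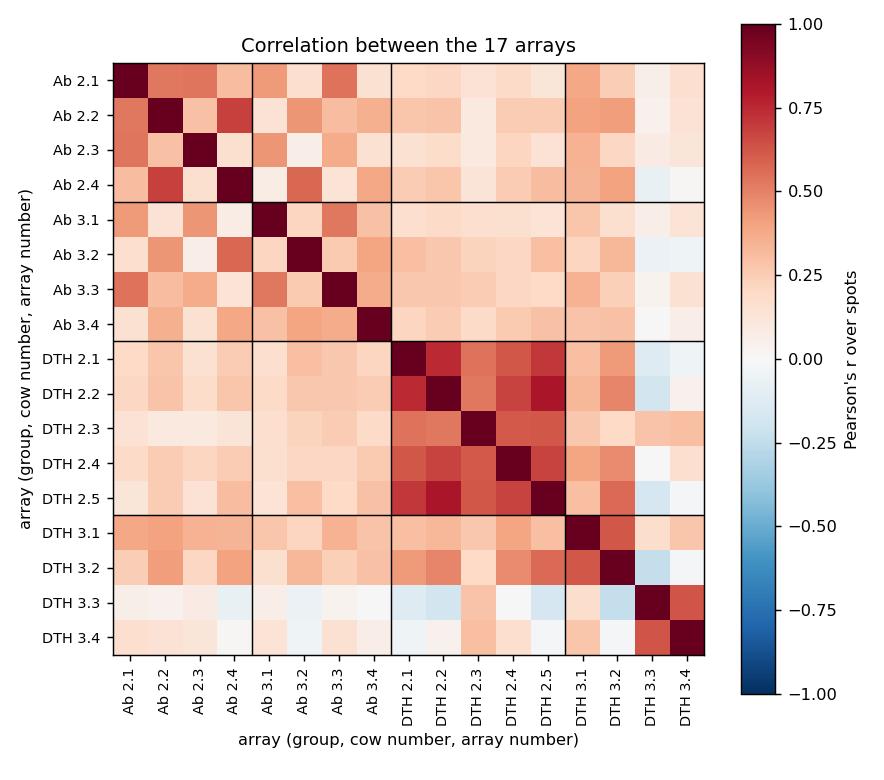
Pearson's r over spots between the 17 arrays, named by group, cow number and array number, with lines between cows (colour scale from −1 to 1). The 5 arrays of high-DTH cow 2 form an even block with r of at least 0.52, and arrays 3 and 4 of high-DTH cow 3 run with each other (r = 0.63) but not with its arrays 1 and 2.

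The first question was which genes differed between the sides. No gene passed the test after adjustment for the number of features. By limma with Benjamini-Hochberg adjustment, 0 of 568 features (141 named genes and 427 spots without a single gene symbol) had an adjusted p under 0.05, and the smallest was 0.422. Before adjustment, 63 features (11.1% of those tested) had a p under 0.05. Among the named genes there were 11 of 141, or 7.8%. Differences between the sides spread around 0, with a median of 0.03 and quartiles of −0.12 and 0.15. They lay beyond 0.5 in either direction for 9 genes. The 2 cows of a side differed by a median SD of 0.09 over genes on either side, while the arrays of 1 cow had a median SD of 0.20. With 2 cows a side there are 6 ways to split the cows, and a two-sided exact permutation test of 1 gene cannot go below p = 0.333. The 11 genes below 0.05 and the next 9 are described in what follows as the 20 genes of smallest p, and none of them passed adjustment.

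In 68 of the 141 genes, or 48.2%, the values of the 2 high-Ab cows lay wholly above or wholly below those of the 2 high-DTH cows, in 40 genes above (28.4%) and in 28 below (19.9%). The share over all 568 features was 48.1%. With so large a background, 2 cows on either side of a gap carry little weight for a single gene. By single arrays, the 8 of the high-Ab cows and the 9 of the high-DTH cows separated fully in 3 genes (2.13%). These were TNFRSF1A, FCER1G and LOC407171, each lower on every high-Ab array. Arrays of a cow are repeat measurements of 1 animal and add no animals.

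**Figure D2:**
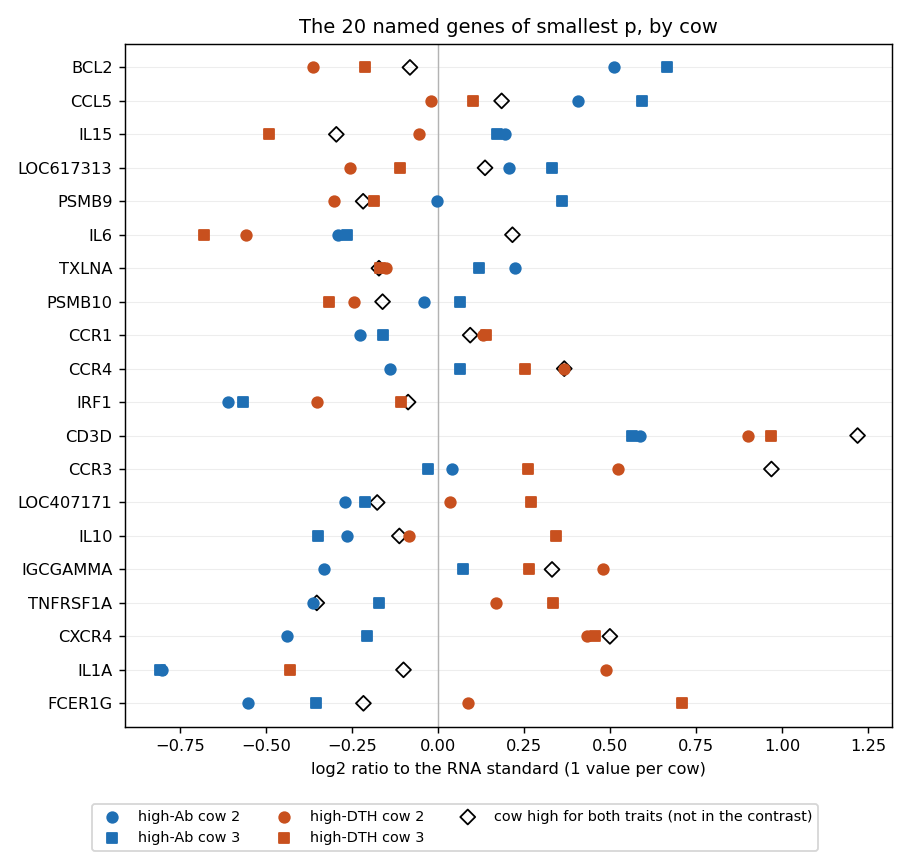
Log2 ratio to the RNA standard (horizontal axis) of the 20 genes of smallest p, with 1 point per cow, for the high-Ab cows (blue), the high-DTH cows (orange) and the cow high for both traits (open diamonds, not in the contrast). The blue and orange points do not overlap in any of the 20 genes, which their choice by p favours, and the open diamond lies nearer the orange points in 14 of them.

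The smallest p belonged to BCL2, which encodes a mitochondrial protein that blocks apoptosis. Its ratio was 0.51 in high-Ab cow 2 and 0.67 in high-Ab cow 3, against −0.36 and −0.21 in high-DTH cows 2 and 3. The difference was 0.87 ± 0.14 (SE, 95% interval 0.50 to 1.25; limma p = 0.00212, adjusted p = 0.422). All 8 high-Ab arrays lay above 0, from 0.23 to 1.04 with a median of 0.61. The 9 high-DTH arrays ran from −1.15 to 0.54 with a median of −0.10, and 3 of them lay above 0. The size of the BCL2 difference depended on the arrays. It was 0.34 over arrays 1 and 2, 1.37 over arrays 3 and higher, and 0.60 without arrays 3 and 4 of high-DTH cow 3. The cow high for both traits was at −0.08, between the sides and nearer the high-DTH cows.

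TNFRSF1A, the main receptor for tumour necrosis factor, whose signal can lead to inflammation or cell death, ran the other way. It was at −0.36 and −0.17 in the high-Ab cows and at 0.17 and 0.33 in the high-DTH cows, a difference of −0.52 ± 0.15 (limma p = 0.0194, adjusted p = 0.422). The high-Ab arrays lay between −0.47 and −0.06 and the high-DTH arrays between 0.07 and 0.57. The difference was nearly equal over arrays 1 and 2 (−0.52) and over arrays 3 and higher (−0.50), and likewise with the cow in Alexa647 (−0.48) or in Alexa555 (−0.55). The cow high for both traits was at −0.35, beside the high-Ab cows. Of the 8 measured genes of death receptors and survival, 5 had a higher and 3 a lower mean in high-Ab cows, with a median difference of 0.14 against 0.03 over all named genes. BCL2 and TNFRSF1A were the 2 with an unadjusted p under 0.05, and the other 6 had a larger p. Over all features the share under 0.05 was 11.1%, and over named genes 7.8%. Without arrays 3 and 4 of high-DTH cow 3 the median of the 8 genes was 0.01. The inflammatory caspases CASP1 (0.36 ± 0.26) and CASP4 (0.32 ± 0.18) had higher means in high-Ab cows, but the CASP1 difference was −0.08 over the first 2 arrays of each cow and 0.80 over its later arrays. The death receptor FAS (0.13 ± 0.15), its ligand FASLG (0.15 ± 0.14), the second tumour necrosis factor receptor TNFRSF1B (−0.07 ± 0.13) and the BCL2 relative BCL2L1 (−0.03 ± 0.12) lay closer to 0.

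Chemokine receptors steer leukocytes along chemokine gradients. All 7 measured receptors had lower means in the high-Ab than in the high-DTH cows, with a median difference of −0.33, where 64 of all 141 named genes (45.4%) had lower means. The count was 5 of 7 without arrays 3 and 4 of high-DTH cow 3 (median −0.27), and 5 of 7 with the cow in either dye alone. At an unadjusted p under 0.05 there were 2 of the 7, CXCR4 and CCR1, against 7.8% of named genes, and CCR1 turned in 1 dye orientation. CXCR4, the receptor for the homing chemokine CXCL12, was at −0.44 and −0.21 in the high-Ab cows and at 0.43 and 0.46 in the high-DTH cows. The difference was −0.77 ± 0.14 (95% interval −1.15 to −0.39; limma p = 0.00395, adjusted p = 0.422). None of the 8 high-Ab arrays lay above 0 and 8 of the 9 high-DTH arrays did, the exception being array 1 of high-DTH cow 3 at −0.13. The difference was −0.52 over arrays 1 and 2, −1.01 over arrays 3 and higher, and −0.55 without arrays 3 and 4 of high-DTH cow 3. The cow high for both traits was at 0.50, with the high-DTH cows.

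CCR1, a receptor for CCL3 and CCL5, and CCR3, the eotaxin receptor found on eosinophils and some type 2 T cells, are neighbouring genes of bovine chromosome 22 with 0 protein-coding genes between them in the RefSeq annotation of the ARS-UCD2.0 assembly. CCR1 was at −0.23 and −0.16 in the high-Ab cows and at 0.13 and 0.14 in the high-DTH cows, a difference of −0.33 ± 0.12 (limma p = 0.0480, adjusted p = 0.422). This difference came from 1 dye orientation. It was −0.81 with the cow in Alexa555 and 0.15 with the cow in Alexa647, where the direction turned. CCR3 was at 0.04 and −0.03 against 0.52 and 0.26, a difference of −0.39 ± 0.15 (limma p = 0.0538), and it leaned on the other orientation (−0.75 in Alexa647, −0.02 in Alexa555). CCR4, a receptor of type 2 and skin-homing T cells, was at −0.14 and 0.06 against 0.37 and 0.25, a difference of −0.35 ± 0.14 (limma p = 0.0646). For these 3 receptors the cow high for both traits was at 0.09, 0.97 and 0.37. The lymph node homing receptor CCR7 (−0.10 ± 0.20), the gut homing receptor CCR9 (−0.01 ± 0.14) and the neutrophil receptor CXCR2 (−0.05 ± 0.14) were close to 0, and their cows overlapped.

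**Figure D3:**
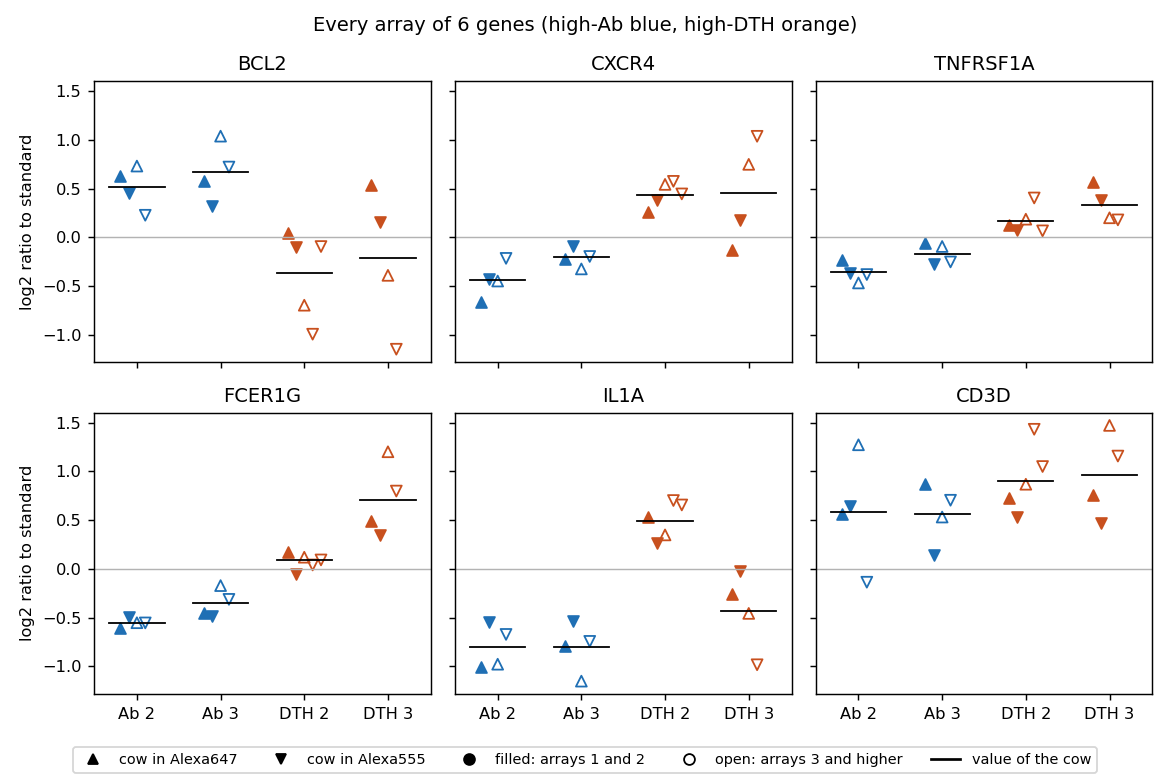
Log2 ratio of 6 genes on each of the 17 arrays (vertical axis), by cow, with triangles pointing up for the cow in Alexa647 and down for Alexa555, filled for arrays 1 and 2 and open for arrays 3 and higher; black lines are the values of the cows. TNFRSF1A and FCER1G do not overlap between the blue high-Ab and the orange high-DTH arrays, whereas for BCL2 and CXCR4 the open symbols of high-DTH cow 3 lie far from its filled ones.

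Of the 7 chemokine ligands in the list, 3 had higher and 4 lower means in high-Ab cows, with a median of −0.06. CCL20 (0.01 ± 0.16) and XCL1 (0.03 ± 0.13), counted as higher, and CCL8 (−0.06 ± 0.13), counted as lower, lay near 0. The count was 1 higher and 6 lower with array medians subtracted or quantile normalization. It was 2 and 5 with arrays scaled to the same spread, in Alexa647 alone or without arrays 3 and 4 of high-DTH cow 3. In Alexa555 alone it was 3 and 4. The gene spotted as SDF1 is not in this list. It had a difference of 0.19 ± 0.13, with −0.00 over arrays 1 and 2 and 0.36 over arrays 3 and higher. CCL5, a chemokine released by activated T cells, natural killer cells and other leukocytes, had higher ratios in the high-Ab cows. It stood at 0.41 and 0.59 against −0.02 and 0.10, a difference of 0.46 ± 0.14 (limma p = 0.0260, adjusted p = 0.422), with 0.48 over arrays 1 and 2 and 0.42 over arrays 3 and higher. All 8 high-Ab arrays lay above 0, from 0.22 to 0.88, and the high-DTH arrays ran from −0.29 to 0.38. CXCL8, which attracts neutrophils, had the most negative mean difference of the 141 genes, −0.97, but an SE of 0.76. Its cows were at −1.56 and 0.01 on the high-Ab side and at 1.01 and −0.62 on the high-DTH side, so the gap within either side exceeded the difference between them. CCL3 was at −1.25 and −0.48 against −0.06 and −0.61 (−0.53 ± 0.34), with overlap. The 2 clones of CCL2 gave 0.10 and −0.27 and so disagreed in sign.

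Interleukin 1 is an early inflammatory cytokine of monocytes. IL1A was at −0.80 and −0.81 in the high-Ab cows, and at 0.49 in high-DTH cow 2 and −0.43 in high-DTH cow 3. The difference was −0.83 ± 0.33 (limma p = 0.0555, adjusted p = 0.422), and the gap between the 2 high-DTH cows, 1 on each side of 0, was at least as wide as that between the sides. All 8 high-Ab arrays lay between −1.15 and −0.54. The 5 arrays of high-DTH cow 2 ran from 0.27 to 0.70 and the 4 of high-DTH cow 3 from −0.98 to −0.02. IL1B, which lies near IL1A on chromosome 11 with 1 protein-coding gene between them, was at −1.03 and −1.15 against −0.91 and −0.35, a difference of −0.46 ± 0.22 (limma p = 0.104). It was −0.14 over arrays 1 and 2 and −0.77 over arrays 3 and higher. The antagonist IL1RN (0.17 ± 0.34) and the cytokine IL18 (0.10 ± 0.14) overlapped between the sides. The list of 5 genes also counts the inflammatory caspase CASP1 (0.36 ± 0.26), whose sign differed between array sets (−0.08 and 0.80). In this list 3 genes had higher and 2 lower means in high-Ab cows, with a median of 0.10. Of the interleukin genes themselves, IL1A and IL1B lay below 0 and IL1RN and IL18 above.

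Other cytokines were also among the 20 genes of smallest p. IL6, which drives the acute phase response and B cell maturation, had ratios below 0 in all 4 cows, at −0.29 and −0.26 in the high-Ab and −0.56 and −0.68 in the high-DTH cows. The difference was 0.34 ± 0.13 (limma p = 0.0480, adjusted p = 0.422). It was 0.59 with the cow in Alexa555 and 0.10 with the cow in Alexa647, and the cow high for both traits stood apart from both sides at 0.22. IL10, a cytokine that restrains inflammation, was at −0.27 and −0.35 against −0.08 and 0.34, a difference of −0.44 ± 0.19 (limma p = 0.0716). That of IL10 was −0.10 with the cow in Alexa647 and −0.77 in Alexa555, and −0.24 over arrays 1 and 2 and −0.64 over arrays 3 and higher. Its receptor chain IL10RB had a difference of −0.29 ± 0.18, with −0.01 over arrays 1 and 2, and IL10RA one of 0.05 ± 0.12. Of the 8 regulatory cytokine genes 5 had higher and 3 lower means in high-Ab cows, with a median of 0.06.

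Over all arrays, genes of the T cell receptor complex differed in sign by chain, but only CD3D had an unadjusted p under 0.05. CD3D, CD3E and CD3G, which lie side by side on chromosome 15, had lower means in the high-Ab cows, and CD247, the zeta chain, a higher one. CD3D was at 0.59 and 0.56 in the high-Ab cows and at 0.90 and 0.97 in the high-DTH cows, a difference of −0.36 ± 0.12 (limma p = 0.0362, adjusted p = 0.422). It was −0.07 over arrays 1 and 2, −0.59 over arrays 3 and higher, and −0.19 without arrays 3 and 4 of high-DTH cow 3. The high-Ab arrays ran from −0.14 to 1.27 and the high-DTH arrays from 0.47 to 1.47, and thus overlapped widely. CD3E differed by −0.18 ± 0.14 (limma p = 0.249), with −0.07 over arrays 1 and 2, and CD3G by −0.25 ± 0.18 (limma p = 0.226), with −0.24. CD247 was at 0.75 and 0.47 against 0.45 and 0.19, a difference of 0.29 ± 0.17 (limma p = 0.156). The CD247 difference was 0.03 over arrays 1 and 2 and 0.55 over arrays 3 and higher. The cow high for both traits had 1.22 for CD3D, 1.08 for CD3E and 0.96 for CD3G, above all 4 cows of the contrast in each. Over the 10 T cell genes 5 had higher and 5 lower means in high-Ab cows, with a median of 0.01. An unadjusted p under 0.05 was reached by 1 of the 10, near the share over all features (11.1%) and over named genes (7.8%). The mean ratio of the list was 0.45 and 0.30 in the high-Ab and 0.42 and 0.36 in the high-DTH cows. The coreceptor CD4 (0.11 ± 0.12), CD28 (−0.06 ± 0.13) and the inhibitory receptor CTLA4 (0.13 ± 0.14) lay near 0. The activation marker CD69 was at 1.52 in high-Ab cow 2 against 0.44 to 0.85 in the other 3 cows (0.23 ± 0.38).

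Immunoglobulin and B cell genes did not separate the sides in 1 direction. IGCGAMMA, the array's name for an immunoglobulin gamma constant region, was lower in the high-Ab cows, at −0.33 and 0.07 against 0.48 and 0.27. The difference was −0.50 ± 0.19 (limma p = 0.0530, adjusted p = 0.422), with −0.20 over arrays 1 and 2 and −0.78 over arrays 3 and higher. IGHM, the mu heavy chain, was at 0.07 and −0.57 against −0.63 and 0.48, and its difference changed from 0.57 over arrays 1 and 2 to −0.92 over arrays 3 and higher. JCHAIN, the joining chain of polymeric immunoglobulin, differed by −0.24 ± 0.19, the costimulatory receptor CD40 by 0.16 ± 0.12 and CD72 by −0.01 ± 0.14. The list for B cells holds IGHM, JCHAIN, CD40 and CD72 but not IGCGAMMA. Of its 4 genes, 1 had a higher and 3 a lower mean in high-Ab cows. The list's mean ratio was −0.06 and −0.19 in the high-Ab and −0.17 and 0.06 in the high-DTH cows.

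Fc receptors bind antibody on myeloid and natural killer cells, and FCER1G is the signalling chain that several of them share. It was at −0.55 and −0.36 in the high-Ab cows and at 0.09 and 0.71 in the high-DTH cows, a difference of −0.85 ± 0.25 (95% interval −1.50 to −0.20; limma p = 0.0209, adjusted p = 0.422). The high-Ab arrays lay between −0.61 and −0.17 and the high-DTH arrays between −0.05 and 1.20, and the difference was −0.75 over arrays 1 and 2, −0.94 over arrays 3 and higher and −0.71 without arrays 3 and 4 of high-DTH cow 3. The receptors FCGR1A, FCGR2B, FCGRT and FCGR3A did not follow it. FCGR1A differed by 0.07 ± 0.13, the inhibitory FCGR2B by 0.28 ± 0.14, and the neonatal receptor FCGRT by −0.05 ± 0.29. FCGR3A, found on natural killer cells and some monocytes, was at −0.59 and 0.91 against 0.01 and 0.40 (−0.05 ± 0.53). Of 6 genes listed for Fc and complement receptors, 2 had higher and 4 lower means, with a median of −0.05. LOC407171, which has only a locus symbol here and was put in no gene list, was at −0.27 and −0.21 against 0.03 and 0.27 (−0.39 ± 0.14; limma p = 0.0461, adjusted p = 0.422). Like FCER1G, it was lower on every high-Ab array than on any high-DTH array. LOC617313 was at 0.21 and 0.33 against −0.25 and −0.11 (0.45 ± 0.14; limma p = 0.0242, adjusted p = 0.422).

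Markers of the blood cell types were read beside these genes. The monocyte marker CD14 was at −0.05 and −0.19 in the high-Ab and −0.02 and 0.22 in the high-DTH cows (−0.22 ± 0.15). The 7 monocyte genes, FCER1G among them, split into 4 higher and 3 lower in high-Ab cows, and their mean ratio was −0.16 and 0.10 against −0.02 and 0.06. The neutrophil granule gene LTF was at −1.57 and −0.35 against −0.53 and −0.19 (−0.60 ± 0.44). Its sign turned with the dye, at −1.51 with the cow in Alexa647 and 0.30 in Alexa555. LTF also varied widely between arrays, from −4.65 to 0.50 over the 7 high-Ab arrays with a value and from −4.78 to 1.46 over the 9 high-DTH arrays. CD163L1, a marker of gamma delta T cells, was at 0.46 and −0.34 against 0.26 and 0.09 (−0.11 ± 0.30). The 3 natural killer and cytotoxic genes had a mean ratio of −0.07 and 0.35 against 0.07 and 0.12. None of these had an unadjusted p under 0.05 other than FCER1G. The part of cell composition in the differences of FCER1G, TNFRSF1A, CXCR4 and the CD3 chains was not tested. Among housekeeping genes, GAPDH was at 0.73 in high-DTH cow 3 against −0.00 to 0.17 in the other 3 cows, and its difference of −0.25 was 0.16 over arrays 1 and 2, −0.66 over arrays 3 and higher, and 0.11 without arrays 3 and 4 of that cow.

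**Figure D4:**
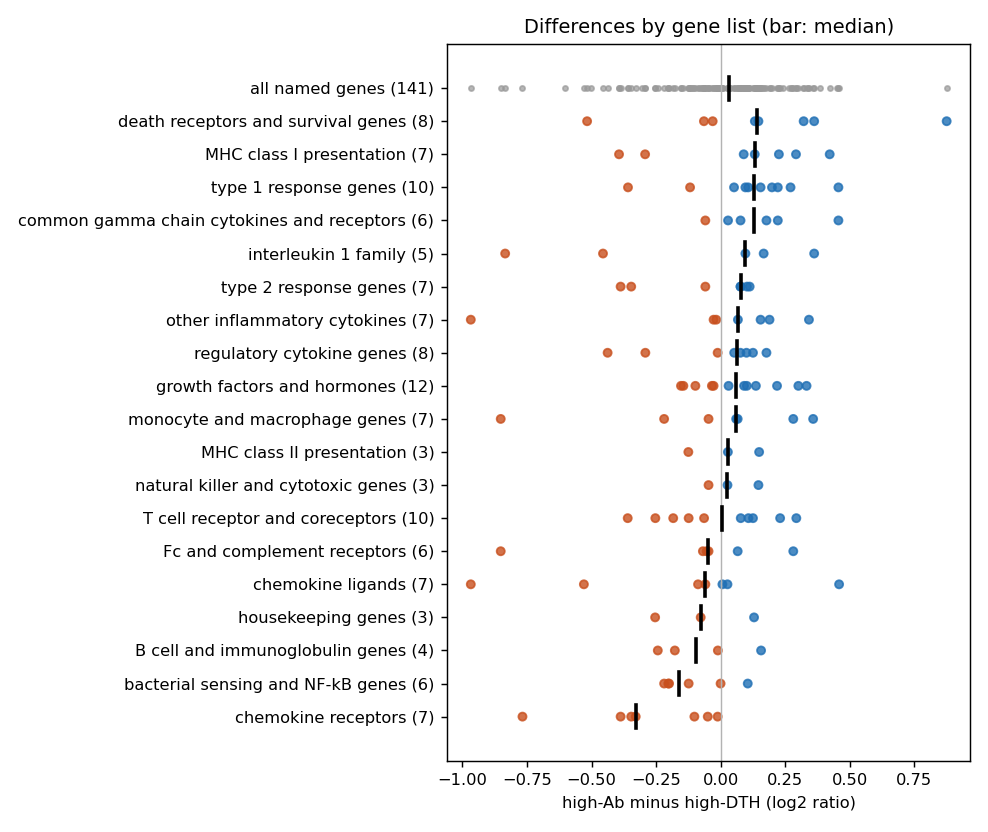
Difference between high-Ab and high-DTH cows (horizontal axis, log2 ratio) of each measured gene, by gene list with at least 3 measured genes (number measured in parentheses), and the median of the list as a black bar. The 7 chemokine receptors all lie below 0, with a median of −0.33, while all 141 named genes have a median of 0.03.

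Antigen presentation on MHC class I begins with the immunoproteasome, a form of the proteasome that cuts peptides for display. Its subunits PSMB9 and PSMB10 were among the 20 genes of smallest p, with higher ratios in high-Ab cows. PSMB9 was at −0.00 and 0.36 against −0.30 and −0.19 (0.42 ± 0.17; limma p = 0.0646) and PSMB10 at −0.04 and 0.06 against −0.24 and −0.32 (0.29 ± 0.13; limma p = 0.0762). PSMB8 was at 0.13 ± 0.17, with 0.42 over arrays 1 and 2 and −0.15 over arrays 3 and higher. The chaperone CALR followed with 0.23 ± 0.14. The class I light chain B2M ran the other way, at 0.10 and −0.12 against 0.56 and 0.21 (−0.39 ± 0.18; limma p = 0.0907), as did the peptide transporter TAP2 (−0.29 ± 0.16). The TAP2 difference came from 1 dye orientation, at −0.61 with the cow in Alexa555 and 0.02 in Alexa647. Of the 7 class I genes 5 had higher and 2 lower means in high-Ab cows, with a median of 0.13. With an unadjusted p under 0.05 there were 0 of 7, against 7.8% of named genes. The class II genes BOLA-DRB3, BOLA-DQA2 and BOLA-DMA had differences from −0.13 to 0.15, and in each of the 3 the sign differed between arrays 1 and 2 and arrays 3 and higher.

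Genes of the type 1 response, which supports cell-mediated immunity, had higher means in high-Ab cows in 8 of 10 cases, with a median of 0.13. Of all 141 named genes, 77 (54.6%) had higher means. In Alexa555 alone the count was 8 of 10 (median 0.26), against 88 of 141. In Alexa647 alone it was 5 of 10 (median 0.03), against 70 of 141. An unadjusted p under 0.05 was reached by 0 of the 10, against 7.8% of named genes. IL15, which sustains natural killer and memory T cells, was at 0.20 and 0.17 against −0.05 and −0.49 (0.46 ± 0.19; limma p = 0.0644), with 0.19 over arrays 1 and 2 and 0.72 over arrays 3 and higher. IFNG, the main type 1 cytokine, was at 0.36 and 0.14 against −0.05 and 0.01 (0.27 ± 0.14), IL2 differed by 0.22 ± 0.12 and the interleukin 12 receptor chain IL12RB2 by 0.20 ± 0.12. IRF1, a transcription factor of the interferon response, ran the other way, at −0.61 and −0.57 against −0.35 and −0.11 (−0.36 ± 0.15; limma p = 0.0620). The IRF1 difference was −0.57 with the cow in Alexa647 and −0.15 in Alexa555, and −0.17 over arrays 1 and 2 and −0.56 over arrays 3 and higher. Of the 7 type 2 genes 4 had higher and 3 lower means, with a median of 0.08. Those furthest below 0 were the receptors CCR3 and CCR4, whereas IL4 (0.08 ± 0.15), IL5 (0.11 ± 0.13) and IL13 (0.08 ± 0.14) lay near 0. Among sensors of bacteria, TLR4 (−0.20 ± 0.12) and TLR2 (−0.20 ± 0.17) had lower means in high-Ab cows. In the list of bacterial sensing and NF-kB genes, 5 of 6 did, against 64 of all 141 named genes (45.4%). NFKB1, counted among the 5, was at −0.00. The sign held in both array sets for 3 of the 6, and TLR2 was at 0.06 over arrays 1 and 2. Scaled to the same spread, the arrays gave 3 higher and 3 lower. TXLNA, which encodes the syntaxin-binding protein taxilin alpha, had the highest difference of the 12 growth factor and hormone genes. It was at 0.22 and 0.12 against −0.15 and −0.17 (0.33 ± 0.13; limma p = 0.0497, adjusted p = 0.422), with 0.60 for the cow in Alexa647 and 0.07 in Alexa555.

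Repeat arrays of the same cows gave a second reading of each difference. Over the 140 genes with a value in both sets, arrays 1 and 2 and arrays 3 and higher gave differences of the sign of the full value in 94. All 20 genes of smallest p were among these, which their choice from the mean of both sets favours. Genes with wide swings between the sets included SOD1 (−0.11 and 0.90), CD69 (−0.35 and 0.82), CASP1 and IGHM. Across the dye orientations, 81 of all 141 genes had 1 sign. So did 19 of the 20 genes, with CCR1 the exception, a count that their choice from the mean of both orientations favours as well. Why the array sets differ was not tested.

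Without arrays 3 and 4 of high-DTH cow 3, 3 of the 20 genes had differences smaller by over 1.5 times: CD3D (−0.19), IGCGAMMA (−0.30) and IL15 (0.26). TNFRSF1A was then at −0.59, CCL5 at 0.59, IL1A at −0.98 and PSMB9 at 0.53, each further from 0 than over all arrays. The other receptors were at −0.36 (CCR1), −0.29 (CCR3) and −0.27 (CCR4). The cytokines IL6 and IL10 were at 0.23 and −0.35, and IRF1 was at −0.26. LOC617313, LOC407171, TXLNA and PSMB10 were at 0.45, −0.35, 0.23 and 0.30. Lists were less steady. Without these arrays the median turned for the T cell genes (−0.07), the interleukin 1 family (−0.05), the monocyte genes (−0.01) and the B cell genes (0.10). It stayed above 0 for type 1 genes (0.11), type 2 genes (0.02), regulatory cytokine genes (0.03) and class I genes (0.27). It stayed below 0 for Fc and complement receptors (−0.04), chemokine ligands (−0.12) and bacterial sensing genes (−0.12). For the class II genes it rose from 0.03 to 0.27, with all 3 higher in high-Ab cows. For the natural killer and cytotoxic genes and for the growth factor and hormone genes it was 0.01. CASP1 (−0.03) and IGHM (0.42) changed sign, and CD247 (0.06) and SOD1 (0.03) came close to 0. When arrays were scaled to the same spread or quantile normalized, the medians of the T cell genes, the interleukin 1 family, the B cell genes and the Fc and complement receptors also turned. Those of the other lists named here did not. Dye orientation turned medians as well. In Alexa647 alone they were −0.09 for type 2 and for regulatory cytokine genes and −0.06 for the interleukin 1 family. For monocyte, class II and natural killer genes they were then −0.05, −0.04 and −0.01. In Alexa555 alone they were −0.09 for T cell genes and 0.03 for Fc and complement receptors. All named genes had medians of −0.01 in Alexa647 and 0.07 in Alexa555.

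**Figure D5:**
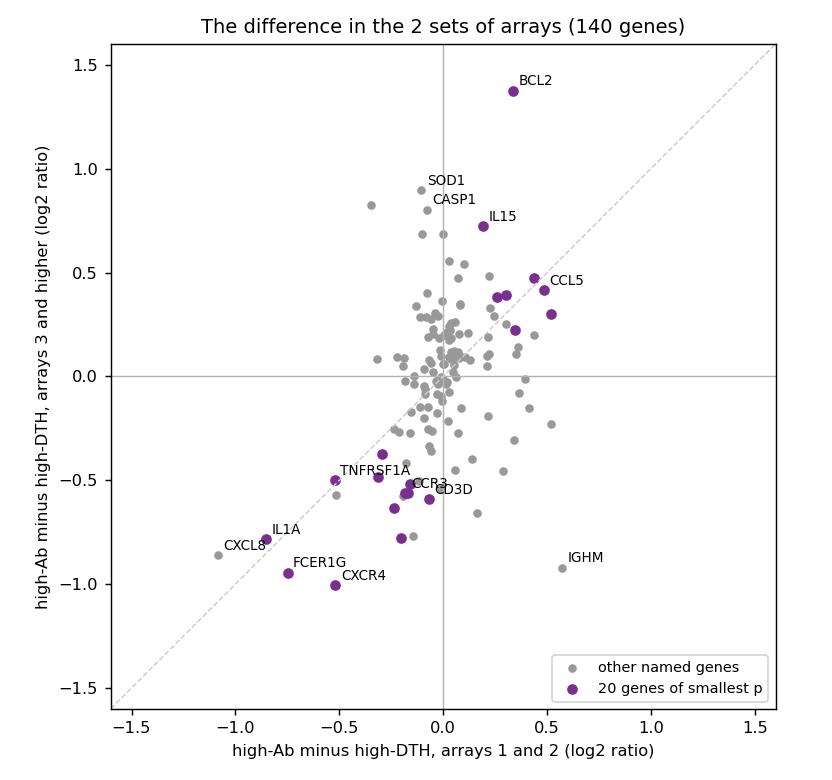
Difference between high-Ab and high-DTH cows over arrays 1 and 2 (horizontal axis) and over arrays 3 and higher (vertical axis) for 140 genes, in log2 ratio, with the 20 genes of smallest p in purple and equality as a dashed line. TNFRSF1A, IL1A and CCL5 lie close to the line, while BCL2 is at 0.34 and 1.37 and IGHM changes sign.

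The cow high for both traits showed where an animal with both labels fell on these genes. It was nearer the mean of the high-DTH than of the high-Ab cows in 14 of the 20 genes, against 91 of all 141 genes (64.5%). Among the genes nearer the high-Ab cows were TNFRSF1A, FCER1G, LOC407171 and LOC617313, and among those nearer the high-DTH cows were BCL2, CXCR4, IL15 and PSMB9. Over the 141 genes its profile had r = 0.70 with high-DTH cow 2, 0.49 with high-Ab cow 2, 0.42 with high-DTH cow 3 and 0.30 with high-Ab cow 3. The 2 high-Ab cows had r = 0.53 with each other and the 2 high-DTH cows 0.30. These correlations are across genes of an array design with a shared standard, and genes are not independent.

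The low cows, taken as different animals from those of the contrast, gave the matching difference between low-Ab and low-DTH cows. It had the same sign as in the high cows in 12 of the 20 genes, against 81 of 141 over all genes (57.4%). In low-Ab cow 1 the first 2 arrays had r between −0.73 and −0.28 with the cow's other arrays, and in low-DTH cow 3 the third array had r between −0.58 and −0.54. Without these 3 arrays the counts were 10 of 20 and 73 of 140. IL1A was turned, at 0.89 between low-Ab and low-DTH cows with all arrays and 1.11 without the 3. So was CXCR4, at 0.49 and 0.63. BCL2 (0.15 and 0.18), CCL5 (0.26 and 0.42) and IL6 (0.44 and 0.51) had the same sign either way. TNFRSF1A was at −0.01 with all arrays and turned to 0.28 without the 3, and FCER1G went from −0.03 to 0.03.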

How the data were processed

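The authors deposited a table of log ratios, 1 for each spot of each array, taken as log2 values. Per the labels, the RNA (3 ug of total RNA) was amplified in 1 round, and cow and standard carried Alexa647 and Alexa555 with dye swaps. For scanner, software, background correction, normalization, log base and ratio direction, the entry is: not given in the sources used here. The deposited values look centred, since the 17 arrays had medians from −0.08 to 0.03. Within a cow, arrays of opposite dye correlated at a mean r of 0.42 over spots, so dye-swapped arrays were read as turned by the authors. No array pair of the same dye from different cows of the contrast had r under −0.3, so no sign was changed. No intensities were used, so signal over background is unknown and precision is limited by how few cows and arrays there are. The 17 arrays lacked 8 to 107 of 1680 spots each.

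The platform annotation gave 1 symbol for 1224 spots, several for 16 and none for 440. These are 141 genes (131 with 8 spots, 10 with 16) and 16 spots of vapA, a bacterial gene left out as a control, which had ratios between −0.13 and 0.12 in the 4 cows. Gene identifiers of 137 genes matched RefSeq with the same symbol. Spots of a gene were averaged, then arrays within a dye orientation, then orientations, giving 1 value per cow, and features lacking a value for either orientation of any of the 4 cows were dropped. High-Ab was compared with high-DTH in limma 3.58.1 (R 4.3.3; lmFit, eBayes) with Benjamini-Hochberg adjustment over 568 features. The fit has 2 residual degrees of freedom and a prior of 2.58. The averaging and fit were tested on simulated data with differences of 1 in either direction. That simulation held no dye effect and no arrays that ran apart, so it cannot show how the fit performs where these occur. Whether the cows of a group share a herd or day is not stated, so p-values measure only the spread between these cows. Gene lists are described by counts and medians and were not tested. The text names the 20 genes of smallest p, the list members furthest from 0, and cell markers. Genes and lists were chosen with earlier results of these data known. Same-numbered cows, taken as different animals, had deviations from their group means with r = 0.08 over features, so the numbers were not taken as pairs. Alternatives covered each cow left out, averaging, dyes, array sets, normalization, the samples in the fit and the unit of the fit.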

Additional observations from a re-analysis of the deposited data

Results flagged for a closer look

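The arrays of each cow were compared with one another for the 20 genes of smallest p, and 1 value stood apart by Dixon's gap test at its 95% level. PSMB9 on array 4 of high-DTH cow 2 was at −0.70, whereas the other 4 arrays of this cow lay between −0.31 and −0.17. In all, 80 sets of arrays were looked at, and chance flags about 1 set in 20.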

How the results depend on the processing

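Of the 20 genes of smallest p, CCR1 turned, at 0.15 with the cow in Alexa647 alone, and no other gene changed direction. This is no sign of stability, since the genes were chosen by p on the same values, leaving out a cow cannot turn genes whose cows do not overlap, and the block, the trend and the fits of all cows leave the difference as it is. The count of features past an adjusted p of 0.05 by limma, 0 over the 4 cows, with 63 at an unadjusted p under 0.05, changed only when a cow was left out or arrays took the place of cows. It was also 0 with arrays 3 and 4 of high-DTH cow 3 left out and with arrays scaled to the same spread, both chosen after seeing the data. With the cow number as a replicate block, although the labels do not pair the cows, the count was 0 of 568. Leaving out 1 cow gave 0 to 10: 10 features without high-DTH cow 3, among them IL1A (−1.29, adjusted p = 0.0138 by limma, but −0.37 and 0.297 without high-DTH cow 2), 1 unnamed spot without high-DTH cow 2, and 0 without either high-Ab cow. The lone cow of a side was then assumed to vary like the others. Taking arrays in place of cow means, with the cow as a random block (correlation 0.12), gave 24 features, 7 of them named: IL1A, TNFRSF1A, CXCR4, CCL5, LOC407171, FCER1G and LOC617313. That fit draws its p-values from arrays, which are repeat measurements of 4 animals. Genes without overlap between the cows numbered 59 to 80 under alternatives with 4 cows, and 98 to 116 with 1 cow left out, where fewer cows must be kept apart. No array met the rule for turning its sign, so that alternative was not run.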
